A study of Mus musculus with 360 samples.

Results

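The solute carriers are the large class of membrane proteins that move nutrients, ions, bile acids and drugs without burning ATP themselves. They were followed here through 61 probes for 54 genes, out of 3154 probes for 2759 genes on the panel. A probe was a member when its symbol began with Slc and a digit, or with Slco; Slc7a11, Slc1a2, Slc22a7 and Slc51a were left out by that rule. One member, Slc9a3r1, is a scaffold protein (NHERF1) that anchors transporters below the membrane and is not itself a carrier. The panel, Mouse S1500+ v1.2 TempO-Seq, reads RNA by ligating paired probes on a transcript and counting the products. All animals were female B6D2F1/Crl (BDF-1) mice of 9 weeks, a first-generation cross, so each group carries the same hybrid genotype. 1 series of mice received 1,2-dichlorobenzene (1,2-DCB) at 0, 1, 10, 30, 100 or 250 ppm, and the other received 1,4-dichlorobenzene (1,4-DCB) at 0, 1, 10, 50, 150 or 400 ppm. The isomers differ in where the second chlorine sits on the ring. Lung, heart, left liver lobe, kidney and whole ovaries were taken on study day 5, and each animal gave every tissue. Of 360 libraries, 326 are labelled as used and were analysed. The labels of the others give reasons such as low sequencing depth (mostly livers), potential tissue contamination (mostly kidneys), low alignment or outlying values. Results said to be with all libraries add these back. The 0 ppm groups held 5 to 10 animals and the exposed groups 2 to 7, the smallest being liver at 1 ppm and kidney at 100 ppm of 1,2-DCB.

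Carriers are usually sorted by substrate and by membrane. In liver, uptake carriers on the blood side of the hepatocyte bring in bile acids, organic cations, glucose and fatty acids, while others send bile acids back out. In kidney, related carriers on both sides of the tubule cell secrete drugs and reclaim amino acids and bile acids. A further family exchanges metabolites across the inner mitochondrial membrane, and another loads the Golgi and endoplasmic reticulum with nucleotide sugars and nucleotides.

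Levels are given as CPM, counts scaled to a library of 1e+06 counts after TMM, and changes as log2 differences from the 0 ppm animals of the same series. A probe is said to have risen or fallen where the adjusted p of edgeR's quasi-likelihood test, taken over all probes of that tissue, was under 0.05. The number of members tested after the filter on low counts was 44 in heart, 48 in ovary, 48 in liver, 50 in lung and 54 in kidney. All 5 tissues tested 38 of them, and 3 (Slc6a3, Slc17a6 and Slc5a5) passed the filter nowhere. Libraries held 4.34 to 46.5 M counts (1 M is 1e+06), with medians of 5.93 M for ovary, 12.3 M for heart, 12.5 M for kidney, 19.4 M for liver and 20.1 M for lung, so a given CPM rests on the fewest counts in ovary. Members took a median of 2.58% of heart counts, 2.09% of kidney counts and 0.46 to 0.859% of those of the other tissues. The tissue labels were checked on markers in unexposed animals. Tnnt2 had a median of 130000 CPM in heart and at most 409 elsewhere, Inha 3850 CPM in ovary and at most 5.16 elsewhere, and Aqp1, the only kidney tubule marker on the panel, 1370 CPM in kidney and 791 in lung. No lung epithelium marker of the list is on the panel, so lung was not checked. Red cell transcripts fell in all 5 tissues at 250 ppm of 1,2-DCB. Their summed median went from 417000 to 41300 CPM in lung, from 92600 to 10000 in heart, from 40500 to 4430 in kidney, from 11000 to 496 in liver and from 6650 to 622 in ovary. Their part in the changes below was not tested. Dbp, an output gene of the circadian clock, rose at 250 ppm in every tissue, for example in kidney from 32.5 to 229 CPM in controls to 489 to 698 CPM. At 400 ppm of 1,4-DCB Dbp rose in heart, lung and ovary. Counts with Dbp as a covariate are given where they differ. Where Dbp of exposed and control animals does not overlap, the covariate cannot separate the clock from exposure. A call lost with it is therefore not shown to come from either.

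The unexposed animals showed in which tissue each carrier had its highest CPM. Of 47 probes with a median of at least 20 CPM in some tissue, 20 were highest in kidney, 18 in ovary, 7 in liver, 1 in lung and 1 in heart. In unexposed tissue, for 15 of the kidney probes, 10 of the ovary probes, 6 of the liver probes and both single probes, every library of that tissue lay above every library of the others, or 33 of 47 (70.2%). Over the whole panel the share was 55.3% of 2144 probes at that level, of which 50.6% were highest in ovary and 17.3% in kidney. These levels compare 1 probe between tissues, never different probes. TMM was run within each tissue, so CPM is not adjusted for differences in composition between tissues. In unexposed animals 1 probe of Hbb-bs had a median of 315000 CPM in lung, and Tnnt2 130000 CPM in heart. Such transcripts leave a smaller share of counts to all other probes of that tissue. Their part in these ranks was not tested.

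In liver the uptake carriers led. Slco1b2, which takes up bile acids and bilirubin conjugates, lay between 842 and 1350 CPM (median 1140, n = 16) against a median of 0.611 CPM in kidney, the next tissue. Slc10a1, the sodium-driven bile acid importer NTCP, lay between 363 and 506 CPM (median 438) against 0.586 in kidney. Slc22a30, of the organic ion carrier family, had a median of 117.5 CPM against 15.4 in kidney at one of its probes. No liver library of these carriers reached down into the kidney range.

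Kidney carried the drug secretion set. Slc22a6, the organic anion exchanger OAT1, lay between 779 and 2020 CPM (median 1520, n = 11) against a median of 0.051 in liver, and Slc22a2, the organic cation carrier OCT2, had a median of 268 CPM against 0.168 in ovary. Slc51b, the beta subunit of the basolateral bile acid exporter, had a median of 639 CPM in kidney and 9.54 in ovary, the next tissue. In lung, Slco4c1, an organic anion carrier, reached a median of 475 CPM (347 to 632, n = 20) against 55.5 in kidney. Slc25a4, the ATP/ADP exchanger of the inner mitochondrial membrane, lay between 14500 and 29600 CPM in heart (median 25700, n = 20), with a median of 1910 in kidney. These probes separated their tissue completely from the rest.

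In ovary the 3 largest ratios to the next tissue were those of Slc18a2, Slc7a6 and Slc25a31. Slc18a2, which loads monoamines into vesicles, had a median of 531 CPM (277 to 682, n = 20) against 1.15 in heart. Slc7a6, which exchanges basic for neutral amino acids, had a median of 309 CPM against 79.5 in lung. Slc25a31, a germ cell form of the mitochondrial ATP/ADP exchanger, had a median of 20.1 CPM against 2.47 in lung.

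**Figure D1:**
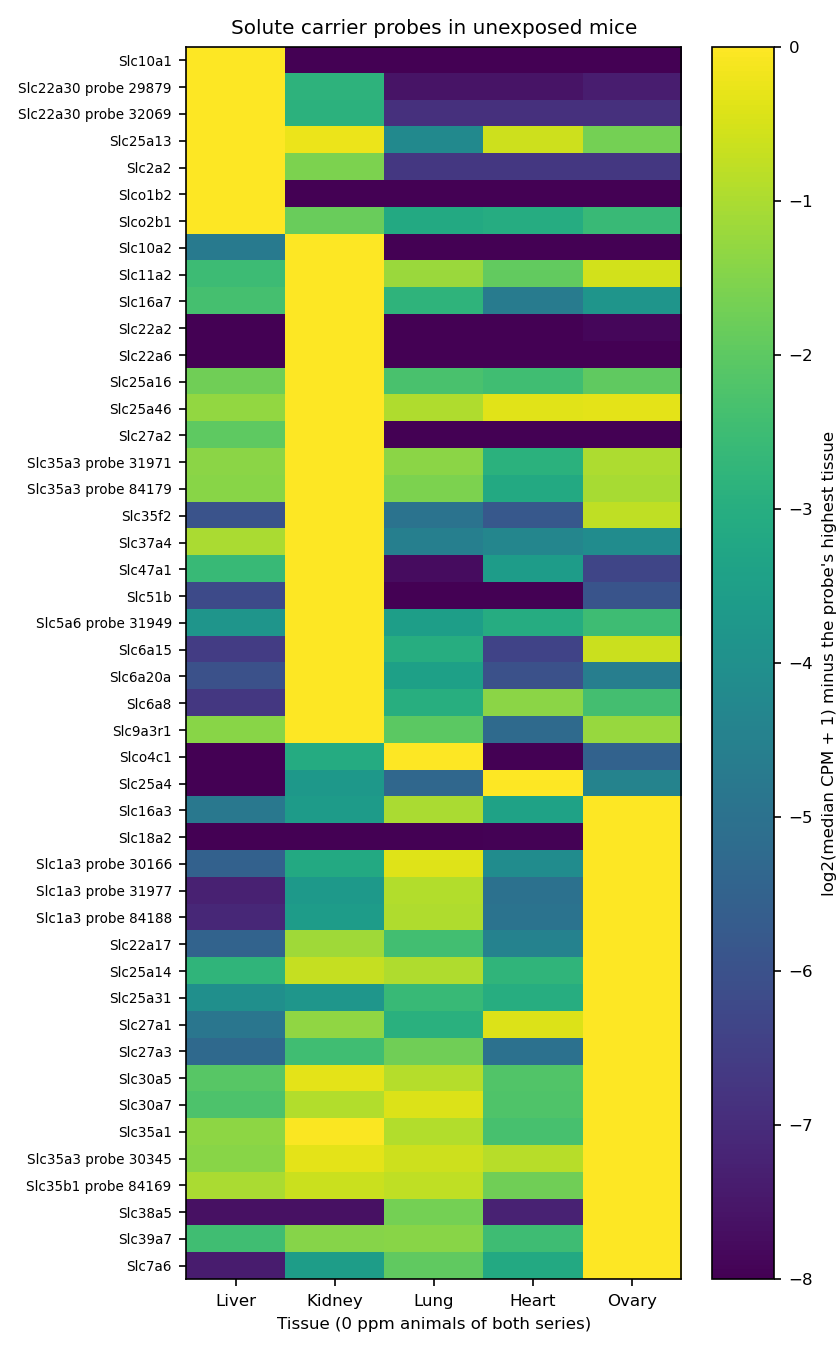
Median level of solute carrier probes in the 0 ppm animals of both series, by tissue (columns) and probe (rows), as log2(median CPM + 1) minus the value in the probe's highest tissue, so 0 marks the highest tissue. Of 47 probes, kidney (20) and ovary (18) hold most of the highest levels, liver 7, lung 1 and heart 1; 1 of the 47 is counted but not drawn. CPM was scaled within each tissue, not between tissues.

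Liver at 250 ppm of 1,2-DCB showed the broadest response. Of the organic ion and bile acid carriers 7 of 12 probes fell, Slco1b2 and Slc10a1 among them, and the glucose carrier Slc2a2 fell, while the neutral amino acid carrier Slc1a4, the creatine carrier Slc6a8, the bile acid exporter subunit Slc51b and the mitochondrial exchanger Slc25a4 rose more than 2-fold. Slc7a6 and the scarcely detected Slc35f2, named after its values were seen, also passed 2-fold. Of 48 members tested, 8 were higher, against 25.1% of all probes, and 19 were lower, against 24.6%. The 27 probes stand for 24 genes, and 6 higher and 3 lower probes passed 2-fold. The members' median change was −0.25, and that of all tested probes −0.03. Among the 17 probes of ATP-driven (ABC) transporters, 5 were higher and 3 lower.

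Beside those 7 falls the organic ion and bile acid carriers gave 1 rise, and 4 probes were not called. Slc22a30 went from 136.3 to 243 CPM in 9 controls (median 178) to 65.5 to 88.5 CPM in 6 exposed livers (median 71.7). The fall was −1.34 (SE 0.10, edgeR adjusted p = 1.13e-16), and its other probe fell by 1.43. Slco1b2 went from 842 to 1230 CPM (median 1080) to 512 to 697 CPM (median 608), a change of −0.84 (SE 0.10, edgeR adjusted p = 2.73e-10). For both, all 6 exposed livers lay below the lowest control.

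Slc10a1 went from 363 to 469 CPM (median 407) to 229 to 350 CPM (median 279), and Slco2b1, another organic anion importer, from 620 to 978 (median 743) to 498 to 609 (median 536). In both, every exposed liver again lay below every control, with changes of −0.54 (SE 0.08, edgeR adjusted p = 2.18e-07) and −0.44 (SE 0.07, edgeR adjusted p = 9.85e-08). With all libraries Slc10a1 changed by −0.52 and was not called (edgeR adjusted p = 0.109). Slc47a1, the proton-coupled cation exporter MATE1, fell by 0.38, with only 2 exposed livers below the lowest control. Slc51b moved the other way, from 4.47 to 14.3 CPM (median 7.58) to 16 to 26.2 CPM (median 20.2), a rise of 1.31 (SE 0.26, edgeR adjusted p = 2.36e-05) without overlap.

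Of the sugar group 2 of 3 members fell and 1 rose, and of the fatty acid and choline group 1 of 3 fell, Slc27a2, with Slc27a1 and Slc27a3 not called. Slc2a2, the GLUT2 glucose carrier, went from 80.1 to 132.8 CPM (median 101) to 47 to 69.8 CPM (median 59.5), a change of −0.75 (SE 0.11, edgeR adjusted p = 5.25e-08) with no overlap. Slc37a4, which carries glucose 6-phosphate into the endoplasmic reticulum, fell by 0.65 (SE 0.16, edgeR adjusted p = 0.000721), with 4 of 6 exposed livers below all controls. Slc27a2, a fatty acid carrier that also activates very long chain fatty acids, went from 597 to 1160 CPM (median 772) to 306 to 515 CPM (median 391). That fall of 1.03 (SE 0.13, edgeR adjusted p = 1.24e-09) left no overlap. The third member of the Slc2, Slc5 and Slc37 families tested, Slc5a6, carries the vitamins biotin and pantothenate and rose by 0.68 (SE 0.22, edgeR adjusted p = 0.00826), its exposed values of 3.71 to 9.62 CPM overlapping the controls at 1.7 to 7.15 CPM. With Dbp as a covariate Slc5a6 changed by 0.36 (edgeR adjusted p = 0.111), and with all libraries its adjusted p was 0.0897.

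Amino acid and creatine carriers gave 3 rises and no fall among 7 probes. Slc6a8 went from 2.98 to 7.2 CPM (median 5.57) to 9.95 to 15.9 CPM (median 12.9), a rise of 1.32 (SE 0.17, edgeR adjusted p = 2.76e-09). Slc1a4 (ASCT1) went from 1.51 to 6.81 CPM (median 4.54) to 9.01 to 13 CPM (median 11.2), a rise of 1.41 (SE 0.22, edgeR adjusted p = 1.49e-07). In both, every exposed liver exceeded every control. Slc7a6 rose by 1.33 (SE 0.40, edgeR adjusted p = 0.00425), but from 0.394 to 2.49 CPM to 0.697 to 3.9 CPM, with overlap. In unexposed animals, Slc6a8 and Slc7a6 were lower in liver than in the other 4 tissues by median.

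The promoter of Slc1a4 is shown for the composite motif TGATGNAAN of ATF4 and C/EBP factors, which read amino acid shortage. No other of the 44 matched member genes holds the motif. Its share was 2.27% of the matched members, 3.65% of 2000 other genes of the panel and 4.5% of 27025 genes. The window runs from 250 bases before to 50 bases after the start of the gene (RefSeq, GRCm38.p6, chr11:20332664-20332963, minus strand), and capitals mark the match, which reads on the opposite strand.
Slc1a4: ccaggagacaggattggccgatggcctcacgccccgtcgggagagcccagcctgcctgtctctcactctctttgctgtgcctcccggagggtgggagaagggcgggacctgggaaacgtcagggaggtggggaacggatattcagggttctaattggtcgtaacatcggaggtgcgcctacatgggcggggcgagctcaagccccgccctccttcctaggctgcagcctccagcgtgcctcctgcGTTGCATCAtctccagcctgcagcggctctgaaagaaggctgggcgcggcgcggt
A match of letters is a description of the window and not a site of binding. The antioxidant response core TGACNNNGC, searched the same way on both strands, was in 11.4% of the matched members. Its share was 15.7% of the other panel genes and 14% of all genes.

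Among mitochondrial carriers 1 rose and 4 fell of 7. Slc25a4 went from 12.1 to 31.3 CPM (median 20.8) to 26.7 to 65.3 CPM (median 41.9), with 5 of 6 livers above all controls, a rise of 1.08 (SE 0.16, edgeR adjusted p = 1.19e-07), or 0.90 with all libraries (0.0755). Slc25a16 and Slc25a14 fell by 0.48 and 0.45, Slc25a46, a protein of the outer mitochondrial membrane, fell by 0.37, and Slc25a13, the aspartate/glutamate exchanger citrin, fell by 0.23. All 3 probes of Slc35a3, which brings UDP-N-acetylglucosamine into the Golgi, fell, by 0.25, 0.33 and 0.70. Slc35a1, the CMP-sialic acid carrier, fell by 0.23, and Slc30a5, a zinc carrier of the secretory pathway, by 0.24. With all libraries the falls of Slc25a13 and Slc35a1 were not called (edgeR adjusted p = 0.156 and 0.08). Slc9a3r1 rose by 0.28 (SE 0.10, edgeR adjusted p = 0.0136), from 344 to 462 CPM to 414 to 599 CPM, 4 of 6 livers exceeding all controls; without animal 505 its adjusted p was 0.0613, and with the 1,2-DCB series alone 0.0603. The 2 carboxylate probes were not called.

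The hepatocyte markers moved with these falls. Of 10 on the list the panel holds 4, none at 0 in control livers, and all 4 fell: Cyp2e1 by 2.19, Fgb by 0.90, Apoa1 by 0.62 and Ttr by 0.29. Their summed level went from 113000 to 166000 CPM in controls to 73500 to 89500 CPM. In bulk tissue, fewer cells of a type and less RNA per cell cannot be told apart. The leukocyte sum was 843 to 3470 CPM in controls and 394 to 1770 CPM at 250 ppm, with Cd68 higher and Cd74 lower among 4 markers; its part in these changes was not tested. Of the pancreas acinar markers Amy2a5 was called higher (edgeR adjusted p = 3.57e-08), in a list that summed to 0 to 0.329 CPM in controls and 0.654 to 9.31 CPM at 250 ppm. Of the fat markers Fabp4 rose by 0.55 (edgeR adjusted p = 0.00549), in a list that summed to 3.61 to 8.24 CPM in controls and 4.78 to 11.3 CPM exposed. The part of these lists was not tested either. With Dbp as a covariate 26 members were called in place of 27.

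**Figure D2:**
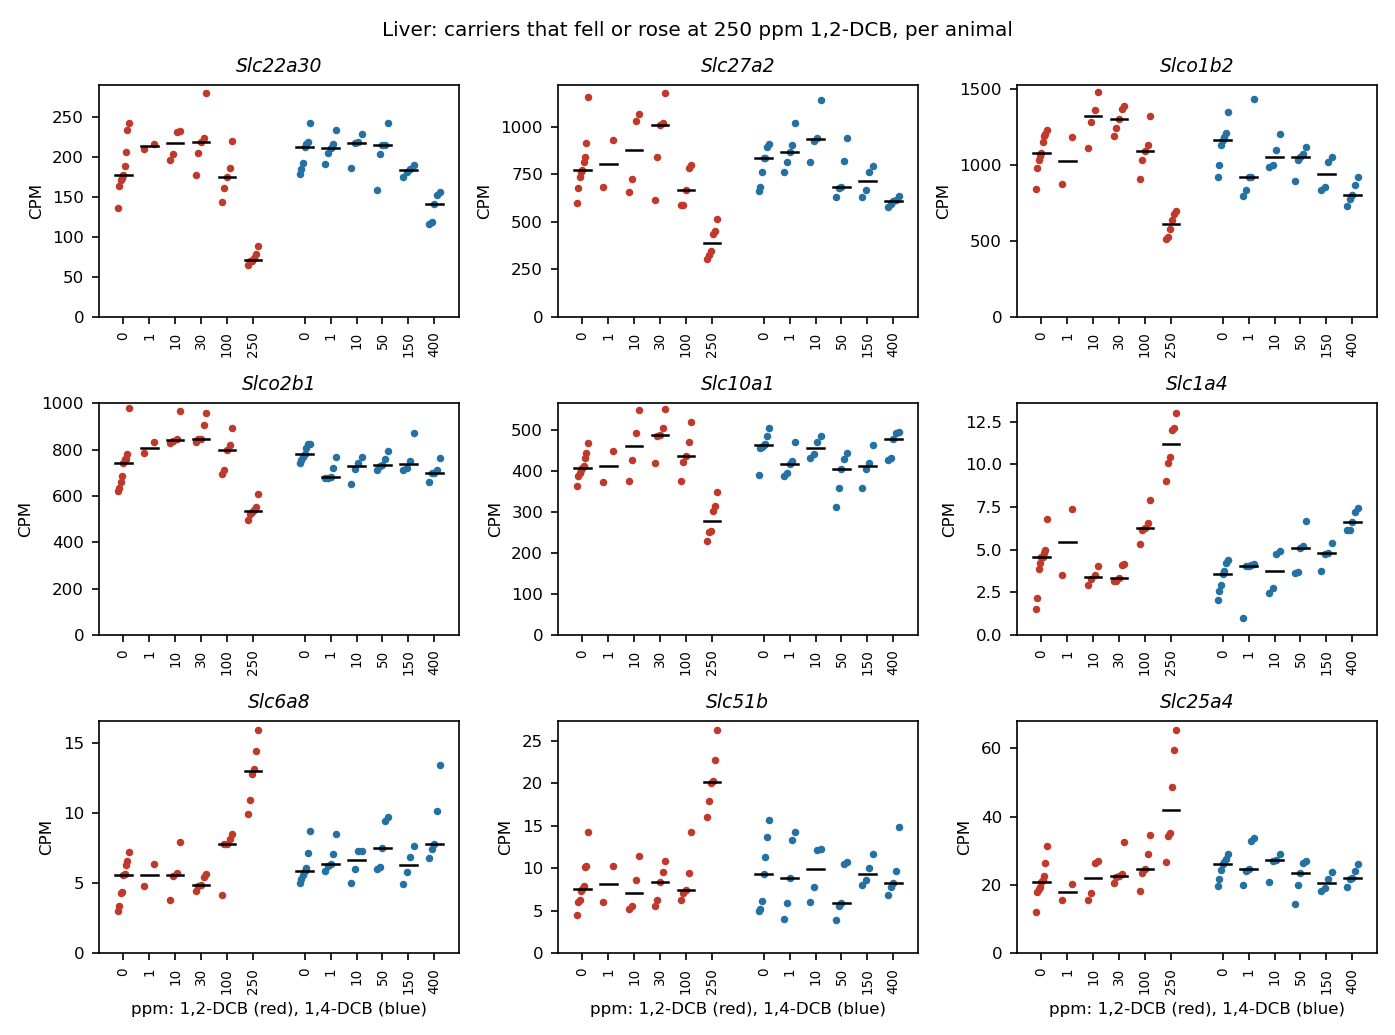
CPM of 9 carriers in liver for every animal (points) by concentration in ppm of 1,2-DCB (red) and 1,4-DCB (blue), with group medians as lines. At 250 ppm of 1,2-DCB, Slc22a30, Slc27a2, Slco1b2, Slco2b1 and Slc10a1 lay below all controls of the series, and Slc1a4, Slc6a8 and Slc51b above them.

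Several of these carriers rose at lower concentrations of 1,2-DCB before they fell. At 10 ppm 4 members were higher (2.65% of all probes) and 0 lower (2.69%). At 30 ppm 7 were higher (6.11%) and 0 lower (5.57%). At 100 ppm 5 were higher (12%) and 2 lower (6.73%). Together, 8 members rose at some concentration below 250 ppm. At 250 ppm, 4 of them fell (Slco2b1, Slc10a1, Slc2a2 and Slc25a13), 3 rose (Slc5a6, Slc1a4 and Slc9a3r1), and Slc16a7, the lactate and pyruvate carrier MCT2, was not called. Of all members tested 39.6% fell at 250 ppm, and of all probes 24.6%. How often probes of the whole panel rose and then fell was not counted, so the turn is not shown to be particular to carriers. No called change of a member below 250 ppm reached 2-fold.

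Slc25a13 shows the turn most fully. Its controls read 859 to 1080 CPM (median 955), and the livers at 10 ppm read 1120, 1190, 1200 and 1230 CPM. At 30 ppm the values were 1160, 1170, 1210, 1330 and 1380 CPM, at 100 ppm 1010, 1070, 1070, 1150 and 1270, and at 250 ppm 713 to 948 (median 825). Every liver at 10 and 30 ppm thus exceeded every control, and 4 of 6 at 250 ppm lay below them. The changes were 0.31 (edgeR adjusted p = 0.0146), 0.38 (0.000304), 0.21 (0.039) and −0.23 (0.00684) in that order. Slc2a2 read 120.5, 125.3, 133.8 and 137.2 CPM at 10 ppm, which was not called. It read 116.3 to 143.3 CPM (median 133.8) at 30 ppm and 121.9 to 167.5 CPM (median 127.6) at 100 ppm, with rises of 0.40 (edgeR adjusted p = 0.0119) and 0.42 (edgeR adjusted p = 0.00434). Of these, 3 of 5 and 1 of 5 livers lay above the highest control.

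Slc9a3r1 rose most clearly at 30 ppm, to 495, 581, 615, 750 and 769 CPM, a change of 0.63 (SE 0.10, edgeR adjusted p = 1.34e-05) with all 5 livers above the controls. At 10 ppm it read 495, 519, 702 and 712 CPM and rose by 0.55. Slc5a6 read 7.07, 7.53, 9.3 and 10.4 CPM at 10 ppm, a rise of 0.97 (SE 0.24, edgeR adjusted p = 0.0124), and all but the lowest lay above the controls. Slc1a4 rose from 100 ppm on, where it read 5.32, 6.15, 6.26, 6.54 and 7.88 CPM, by 0.63 (SE 0.23, edgeR adjusted p = 0.0475) with overlap. The 2 falls at 100 ppm were Slc10a2, the apical bile acid carrier ASBT, by 0.85 (edgeR adjusted p = 0.0323), and Slc30a5, by 0.23. Slc10a2 read 157 CPM in control 4 and 40.1 to 73.8 CPM in the other controls. At 100 ppm it read 25.5, 32.4, 33.4, 43.1 and 44.4 CPM, with overlap. A fit without control 4 was not run.

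Dbp moved along this range. It lay at 3.92 to 95.2 CPM in control livers, and then 168 to 407, 90.9 to 422, 42.1 to 208 and 29.9 to 259 CPM from 10 to 250 ppm. With Dbp as a covariate the calls were 2 at 10 ppm in place of 4, 3 at 30 ppm in place of 7 and 6 at 100 ppm in place of 7. Slc25a13 was no longer called at 10 or 30 ppm (changes 0.17 and 0.25, edgeR adjusted p = 0.369 and 0.0597). At 10 ppm Slc5a6 changed by 0.28 (edgeR adjusted p = 0.639) and Slc9a3r1 by 0.40 (0.08) with the covariate. At 100 ppm Slc2a2 changed by 0.25 (edgeR adjusted p = 0.115), Slc5a6 by 0.41 (0.168) and Slc9a3r1 by 0.22 (0.166), none of them called. When the libraries labelled as not used were added, the calls were 1, 3 and 0 at 10, 30 and 100 ppm. At 100 ppm they were also fewer with the 1,2-DCB series alone (3) and with no filter on low counts (4).

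The promoter of Slc25a13 is shown for its single E-box, CACGTG, the motif read by clock factors and other basic helix-loop-helix proteins. Searched on both strands, the motif was in 8 of 44 matched member genes (18.2%), 9.7% of 2000 other genes of the panel and 8.09% of all genes. Among the 8 is Slc6a3, which passed the count filter nowhere. These shares were not tested. Capitals mark the motif in the window (RefSeq, GRCm38.p6, chr6:6217124-6217423, minus strand).
Slc25a13: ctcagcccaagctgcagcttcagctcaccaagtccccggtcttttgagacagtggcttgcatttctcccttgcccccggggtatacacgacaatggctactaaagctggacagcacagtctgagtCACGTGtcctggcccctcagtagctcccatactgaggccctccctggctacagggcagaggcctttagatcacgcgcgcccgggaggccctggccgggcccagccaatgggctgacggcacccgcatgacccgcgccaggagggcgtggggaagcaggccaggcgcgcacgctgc
No binding was measured here, so the motif says nothing of what acts on this gene.

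**Figure D3:**
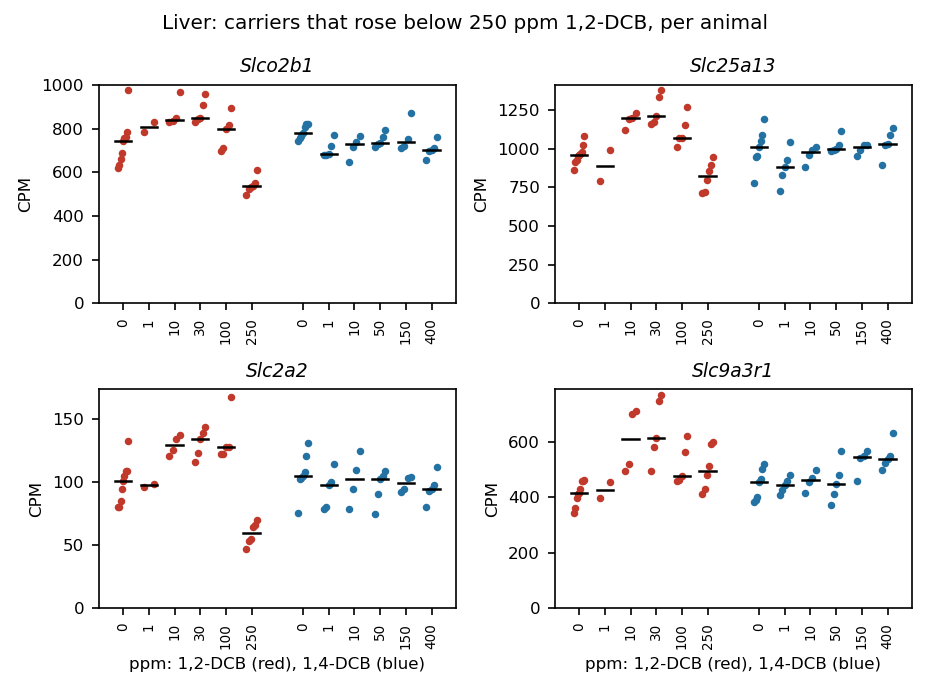
CPM in liver of 4 members that rose below 250 ppm of 1,2-DCB, every animal by concentration in ppm (1,2-DCB red, 1,4-DCB blue), lines at group medians. Slco2b1, Slc25a13 and Slc2a2 fell at 250 ppm while Slc9a3r1 remained called higher.

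The 1,4-DCB livers changed fewer carriers. At 400 ppm 6 members were higher (18% of all probes) and 7 lower (13.6%), standing for 10 genes, with medians of −0.0054 for members and −0.03 for all probes. ABC transporters again counted 5 higher and 3 lower of 17. At 150 ppm 1 member was higher (5.07%) and 0 lower (0.884%). At 1, 10 and 50 ppm no call was made among members.

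Of 7 lower probes 3 were organic ion carriers, both of Slc22a30 and 1 of Slco1b2, and Slc27a2, Slc35a1 and Slc35a3 gave the others. Slc22a30 went from 180 to 243 CPM in 7 controls (median 213) to 116.8 to 157 CPM (median 141.1) in 5 exposed livers, by −0.59 (SE 0.11, edgeR adjusted p = 1.91e-05), without overlap. Its other probe read 62.9, 74, 83.7, 86.1 and 89.6 CPM, below all controls. Slco1b2 went from 918 to 1350 CPM (median 1160) to 729, 774, 800, 866 and 920 CPM, by −0.47 (SE 0.11, edgeR adjusted p = 0.000578), the highest exposed liver just above the lowest control. Slc35a1 went from 82.3 to 96.5 CPM (median 88.7) to 61.9, 62.3, 65.2, 66 and 77.2 CPM, by −0.41 (SE 0.07, edgeR adjusted p = 4.96e-06), without overlap. Slc27a2 fell by 0.39 and Slc35a3 by 0.22 at the probe with the smaller p. The call of Slc27a2 was lost without animal 503 (edgeR adjusted p = 0.057), control 10 (0.0543) or control 5 (0.0504), and that Slc35a3 probe without animal 504 (0.0592). With all libraries neither Slc27a2 (edgeR adjusted p = 0.137) nor Slc35a3 (0.0763, and 0.0686 at its other lower probe) was called, nor were Slco1b2 (0.447) and the Slc22a30 probe described first (0.0542). Organic ion and bile acid carriers counted 3 falls and 1 rise of 12, with Slc10a1 and Slco2b1 not called, and none of 7 mitochondrial, 3 sugar or 4 metal carriers was called.

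The rise among bile acid carriers was Slc10a2. It went from 27.5 to 76.6 CPM (median 44.4) to 74.1, 81.2, 87.2, 94.8 and 109.2 CPM, a change of 1.03 (SE 0.29, edgeR adjusted p = 0.00448), and 1 exposed liver overlapped the controls. Slc1a4 went from 2.02 to 4.38 CPM (median 3.58) to 6.13, 6.14, 6.6, 7.19 and 7.44 CPM, a rise of 1.00 (SE 0.24, edgeR adjusted p = 0.000803) without overlap. Slc6a8 rose by 0.54 (SE 0.19, edgeR adjusted p = 0.0225), from 5 to 8.74 CPM to 6.79, 7.39, 7.8, 10.1 and 13.4 CPM, and without animal 504 it changed by 0.35 (edgeR adjusted p = 0.187). Slc6a8 was also not called without animal 505 (edgeR adjusted p = 0.0592) or with all libraries (0.668). Both probes of Slc35b1, the ATP/ADP exchanger of the endoplasmic reticulum, rose, by 0.32 and 1.12, and Slc9a3r1 rose by 0.30 (edgeR adjusted p = 0.0264). The Slc35b1 probe with the larger rise lost its call without animal 501 (edgeR adjusted p = 0.0677), 503 (0.0752), 504 (0.0826) or 505 (0.0527), without control 4 (0.0598), 5 (0.0704) or 10 (0.0924), with the series alone (0.0522), with Dbp (0.0903) and with all libraries (0.0744). The other Slc35b1 probe lost it without animal 503 (0.148), without control 5 (0.0809) or 10 (0.0611), with no filter (0.0587) and with attenuation undone (0.0517).

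Without animal 504 the call count at 400 ppm was 8 in place of 13, and with the libraries labelled as not used it was 6. Of the hepatocyte markers, Cyp2e1, Fgb and Apoa1 fell by 1.05, 0.70 and 0.59, while Ttr changed by 0.01 (edgeR adjusted p = 0.94); their sum was 129000 to 160000 CPM in controls and 110000 to 126000 CPM at 400 ppm. The leukocyte sum was 750 to 1340 CPM in controls and 517 to 574 CPM at 400 ppm, with 3 of 4 markers lower. Fabp4 rose by 0.69 and Amy2a5 was called higher in these livers as well (edgeR adjusted p = 0.00279 and 0.00015), and the part of these markers was not tested. The highest concentrations of the isomers differ, so their calls are set side by side and not tested. Of 27 probes called at 250 ppm of 1,2-DCB and 13 at 400 ppm of 1,4-DCB, 10 were in both, or 37% and 76.9%, all in the same direction and against separate controls. Over all probes the shares were 49.7% and 78.1%, with 94.9% of the shared calls in the same direction.

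In kidney at 250 ppm of 1,2-DCB the called carriers mostly rose. Of 54 members 9 were higher (6.78% of all probes) and 1 lower (4.95%), with 3 of 7 mitochondrial carriers among the rises. ABC transporters counted 3 higher and 2 lower of 17.

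Slc6a15, a carrier of branched-chain amino acids and proline, was the fall. It read 60.3, 92.6, 108.7, 136.1 and 161 CPM in controls and 35.2 to 56.4 CPM in 6 exposed kidneys (median 43.6), a change of −1.32 (SE 0.19, edgeR adjusted p = 2.47e-06) without overlap. Slc25a13 read 661, 725, 795, 873 and 880 CPM in controls and 1090 to 1240 CPM exposed (median 1160), a rise of 0.56 (SE 0.10, edgeR adjusted p = 0.000112). Slc11a2, the proton-coupled iron carrier DMT1, read 295, 327, 336, 351 and 356 CPM and then 437 to 508 CPM (median 487), a rise of 0.52 (SE 0.08, edgeR adjusted p = 1.26e-05). No exposed kidney overlapped the controls in either.

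Slc6a20a, an imino acid carrier, read 59.1, 62, 62.9, 63.4 and 66 CPM in controls and at least 75.6 CPM at 250 ppm (median 91.4), a rise of 0.55 (SE 0.13, edgeR adjusted p = 0.00219). At 30 ppm, where 1 member was higher (0.366% of all probes) and 0 lower (0.330%), it read 97.8, 104 and 104 CPM and rose by 0.70 (SE 0.15, edgeR adjusted p = 0.0082). Slc9a3r1 rose by 0.49 (edgeR adjusted p = 0.00157), Slc51b by 0.36 (0.0315), Slc35b1 by 0.33 (0.0168), Slc25a4 by 0.29 (0.0192) and Slc25a16 by 0.28 (0.0294). The remaining rise, Slc10a1, averaged under 20 counts and is named because it is a hepatocyte carrier. It moved from 0.171 to 0.993 CPM to 0.7 to 2.56 CPM. Slco1b2, the other hepatocyte carrier looked at in these kidneys, read 0 to 0.611 CPM in controls (median 0.0691) and 0 to 2.62 CPM at 250 ppm (median 1.25), a fitted change of 2.58 (edgeR adjusted p = 0.171). Among hepatocyte markers in the same kidneys, Fgb changed by 0.0030 (edgeR adjusted p = 0.999), Ttr by −0.23 (0.522) and Apoa1 by 0.87 (0.513), while Cyp2e1 rose by 0.78 (0.000402). Their medians in the control kidneys were 1.96 CPM for Fgb, 603 for Ttr, 8.89 for Apoa1 and 1080 for Cyp2e1. Ttr and Cyp2e1 are thus read well in unexposed kidney.

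Dbp was above all controls in each kidney at 250 ppm. With it as a covariate 3 members were called in place of 10, and Slc25a13 changed by 0.34 (edgeR adjusted p = 0.0709) and Slc6a20a by 0.34 (0.187). Slc51b then changed by 0.02 (edgeR adjusted p = 0.946), Slc25a16 by 0.14 (0.51), Slc25a4 by 0.21 (0.238), Slc35b1 by 0.26 (0.188) and Slc9a3r1 by 0.31 (0.158). At 30 ppm the covariate left 0 calls, with Slc6a20a at 0.47 (edgeR adjusted p = 0.303). Of the leukocyte markers Cd74 fell by 1.05 (edgeR adjusted p = 0.00338) in these kidneys and the other 3 were not called; their part was not tested. Leaving out animal 505, or control 2 or 8, each gave 6 calls, with Slc25a16 and Slc25a4 among those lost each time. At 400 ppm of 1,4-DCB no member was called (1.03% of all probes), although 6 of 54 had an unadjusted p below 0.05. Of all probes 250 of 2729 had such a p. DESeq2 also called 0 members. Without control 8 edgeR made 1 call. Slc6a15 read 70.3, 76.2, 88.4, 93 and 99.7 CPM there.

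The lowest 1,4-DCB concentration gave calls that higher ones did not. At 1 ppm 2 members were higher (0.440% of all probes) and 0 lower (0.0366%). Slc10a2 read 768 to 1290 CPM in 6 controls (median 1080) and 1440, 1500, 1640 and 1940 CPM at 1 ppm, a rise of 0.62 (SE 0.13, edgeR adjusted p = 0.0166). Slc1a4 read 10.3 to 15.7 CPM and then 17.6, 20.6, 23.7 and 24.6 CPM, a rise of 0.73 (SE 0.16, edgeR adjusted p = 0.0224). Neither group overlapped its controls, yet with only the animals of the same series in the fit both adjusted p were 0.0763, and with all libraries 0.259 and 0.13. Control kidneys of the 1,2-DCB series read 1280 to 1460 CPM of Slc10a2 and 13.2 to 22.5 CPM of Slc1a4. These ranges cover some of the values at 1 ppm. The Dbp covariate gave 3 calls, and Slc1a4 was not among them (0.53, edgeR adjusted p = 0.105).

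In lung at 250 ppm of 1,2-DCB the called carriers also mostly rose. Of 50 members 12 were higher (17.6% of all probes) and 1 lower (15%), and ABC transporters counted 3 higher and 3 lower of 15. Slc25a13 went from 41.4 to 58.6 CPM in 10 controls (median 49.3) to 66 to 83.1 CPM in 6 lungs (median 76.2), a rise of 0.59 (SE 0.09, edgeR adjusted p = 5.21e-07). Slc11a2 went from 126.9 to 171 CPM (median 146.9) to 178 to 224 CPM (median 197), a rise of 0.44 (SE 0.07, edgeR adjusted p = 1.91e-07). Slc9a3r1 went from 265 to 315 CPM (median 286) to 339 to 415 CPM (median 363), a rise of 0.37 (SE 0.07, edgeR adjusted p = 2.74e-05). In all 3 no exposed lung overlapped the controls.

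Slc35b1 went from 80 to 104 CPM (median 88.2) to 97.4 to 140 CPM (median 118.7), a rise of 0.41 (SE 0.08, edgeR adjusted p = 4.82e-05) with 5 of 6 lungs above all controls. Smaller rises came from Slc25a4 (0.28), Slco4c1 (0.28), Slc25a16 (0.21), Slc35a1 (0.18) and Slc16a3, the lactate exporter MCT4 (0.34). The other Slc35b1 probe rose by 0.52 and lost its call without animal 501 (edgeR adjusted p = 0.0601) or 506R (0.142) and with all libraries (0.0688). Slc25a16 changed by 0.08 with Dbp as a covariate (edgeR adjusted p = 0.487) and was not called without animal 503 (0.114) or 508 (0.0583) or with the series alone (0.0529). Slc25a4 was not called without animal 501 (edgeR adjusted p = 0.0769) or 506R (0.104), with the series alone (0.105) or with all libraries (0.0543), nor Slc35a1 with all libraries (0.113). Slc5a6 rose by 0.52 (SE 0.21, edgeR adjusted p = 0.0493), and without animal 504 the change was 0.33 (0.245), without animal 507 0.37 (0.192) and with Dbp 0.29 (0.405). Slc5a6 was also not called with no filter (edgeR adjusted p = 0.0647), attenuation undone (0.0536), all libraries (0.0942) or the series alone (0.0614). Slc6a20a was the fall, from 3.54 to 7.94 CPM (median 6.59) to 1.8 to 5.27 CPM (median 3.21), by −0.94 (SE 0.22, edgeR adjusted p = 0.000601), where kidney had a rise of 0.55. Control lungs of the 1,4-DCB series read 1.75 to 5.3 CPM of the same probe, below the 1,2-DCB controls by 1.07 (edgeR adjusted p = 0.000994), a difference between unexposed groups of about the size of the change. Red cell transcripts, which were 225000 to 557000 CPM in these controls and 12400 to 238000 CPM at 250 ppm, take a larger share of counts in lung than in the other tissues. Of the 4 leukocyte markers Cd74 fell by 0.55, Ptprc fell by 0.45 and Cd68 rose by 0.37, with a sum of 46700 to 70600 CPM in controls and 45100 to 70100 CPM at 250 ppm. The part of neither list was tested.

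At 30 ppm 4 members were higher (2.29% of all probes) and 1 lower (2.29%). Slc16a7 read 34 to 43.7 CPM in controls and 46.5 to 61.7 CPM exposed, a rise of 0.47 (SE 0.10, edgeR adjusted p = 0.00133), and Slc6a15 read 8.48 to 12.7 CPM and 14.5 to 19.9 CPM, a rise of 0.69 (SE 0.18, edgeR adjusted p = 0.0105). Neither overlapped. Slc9a3r1 rose by 0.27 and Slc1a3, a glutamate carrier, fell by 0.26. At 100 ppm 3 were higher (3.74%) and 1 lower (2.79%), with Slc26a2, a sulfate carrier, at 0.51, Slc9a3r1 at 0.29 and Slc25a16 at 0.29. The fall was Slco1c1, a thyroid hormone and organic anion carrier named after its values were seen, which averaged under 20 counts. It read 0 to 0.699 CPM in controls (median 0.431) and 0 to 0.163 CPM exposed (median 0), with a fitted change of −2.92 (SE 0.92, edgeR adjusted p = 0.0413). With Dbp as a covariate 30 ppm had 0 calls, 100 ppm 2 and 250 ppm 11. At 400 ppm of 1,4-DCB no member was called (2.61%), although 6 of 50 had an unadjusted p below 0.05. Of all probes 404 of 2756 had such a p. DESeq2 also called 0 members.

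Few heart carriers were called with 1,2-DCB. At 250 ppm 2 probes were higher (4.07% of all probes) and 0 lower (4.81%), both of Slc35a3. Its probes went from 124.9 to 159 CPM in 10 controls (median 144.6) to 154.4 to 171 CPM in 7 hearts (median 162), by 0.19 (SE 0.05, edgeR adjusted p = 0.0144), and from 131.5 to 186 CPM to 163 to 192 CPM, by 0.18 (0.0463). Exposed and control hearts overlapped at both, and with Dbp as a covariate neither was called (edgeR adjusted p = 0.178 and 0.29 for Slc35a3). In their place the covariate gave calls for Slco2b1, at −0.49 (edgeR adjusted p = 0.000714), and Slc1a3, at 1.61 (0.0353). ABC transporters counted 1 higher and 0 lower of 14. Of the leukocyte markers Cd74 fell by 2.02 and Cd68 rose by 0.34, with a sum of 1170 to 4700 CPM in controls and 830.6 to 1590 CPM exposed; their part was not tested.

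With 1,4-DCB many more heart probes were called, several of them on values that were high in 1 or 2 animals. At 400 ppm 7 members were higher (8.84% of all probes) and 2 lower (4.12%), and at 150 ppm 13 were higher (15.3%) and 4 lower (11.9%). Slc27a2 read 0 to 0.433 CPM in 10 controls and 0, 0, 0.078, 2.64 and 17.2 CPM at 400 ppm, with a fitted change of 4.97 (SE 1.26, edgeR adjusted p = 0.00674); without animal 501, the highest, it was 2.51 (0.311). Slc1a3 read 6.17 to 9.97 CPM (median 9.07) and then 11, 11.1, 13.9, 26.2 and 58.3 CPM, a change of 1.49 (SE 0.45, edgeR adjusted p = 0.0197), or 0.85 (0.32) without animal 501; its other probes were not called, at 0.91 (0.172) and 1.304 (0.0739). Slc26a3, a chloride/bicarbonate exchanger, read 2.66 to 10.4 CPM and then 8.51, 9.28, 14.8, 16.5 and 21.6 CPM, a change of 1.38 (SE 0.38, edgeR adjusted p = 0.0119), or 1.17 (0.0855) without that animal. In 2 of these 3 genes only some exposed hearts exceeded the controls.

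Fat markers moved with these calls. Of 4 on the list the panel holds 3, and Adipoq was at 0 in 5 control hearts. Their summed level was 233 to 296 CPM in controls, 1450 in animal 405 at 150 ppm and 915 in animal 501 at 400 ppm, while the cardiomyocyte marker Tnnt2 read 109000 to 147000 CPM in controls, 35500 in animal 405 and 81300 in animal 501. Slc1a3 read 105 CPM in animal 405 and Slc25a4 read 7380 CPM, below the control range of 20700 to 29600 CPM. Most of that sum is Fabp4. Without the 3 hearts at 150 ppm and 1 at 400 ppm whose sum exceeded every control, the calls were 4 and 2. That choice left out animal 404, with Adipoq at 0.251 and Cidec at 0.151 CPM, inside the control ranges that end at 0.358 and 0.685 CPM. It retained animal 401 (2.15 and 8.71 CPM) and animal 503 (2.22 and 8.59 CPM), which lie above them. Leaving out instead the hearts in which Adipoq and Cidec each exceeded every control (401, 403, 405, 501 and 503) left 2 hearts at 150 ppm and 3 at 400 ppm, and edgeR called 0 members at either concentration. In that fit 2 and 6 members had an unadjusted p below 0.05, DESeq2 also called 0 (5 members had no adjusted p at 400 ppm), and 0% and 0.475% of all probes were called. The share of all probes with such an unadjusted p was not counted. Without animal 405 alone there was 1 call at 150 ppm, and without animal 501 or 503 there were 1 and 2 at 400 ppm. The Dbp covariate gave 19 calls at 150 ppm and 15 at 400 ppm. At 400 ppm Dbp itself rose by 2.00 (edgeR adjusted p = 4.59e-05), from 27 to 90.5 CPM in controls to 160 to 360 CPM. Those ranges do not overlap, so the covariate cannot separate the clock from exposure at 400 ppm. Control hearts of the 1,2-DCB series read 0 to 13 CPM of Slc27a2, 7.05 to 30.6 CPM of Slc1a3 and 2.75 to 17 CPM of Slc26a3, which covers most of the exposed values above.

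At 150 ppm Slc25a13 fell by 0.63, Slc25a4 by 0.62 and Slc11a2 by 0.27 (edgeR adjusted p = 0.00638, 0.00673 and 0.00779). None of these remained called without animal 405 (edgeR adjusted p = 0.121, 0.126 and 0.132). Slc27a1, a fatty acid carrier of muscle, was the larger of the 2 falls at 400 ppm. It read 121.5 to 189 CPM in controls (median 137.5) and 74.1, 85.6, 100, 112.9 and 131.6 CPM at 400 ppm, by −0.47 (SE 0.12, edgeR adjusted p = 0.00486), with 4 of 5 hearts below all controls. The change of Slc27a1 was −0.38 (edgeR adjusted p = 0.053) without animal 503. It was −0.52 (edgeR adjusted p = 0.00774) without the hearts with a high fat marker sum and −0.41 (0.186) without those with raised Adipoq and Cidec. Slc25a46 fell by 0.25 (edgeR adjusted p = 0.0303), from 221 to 273 CPM to 184, 206, 207, 209 and 228 CPM. The call of Slc25a46 was lost without animal 501 (edgeR adjusted p = 0.0891), 503 (0.162) or 505 (0.0646). Slc22a17, a receptor for lipocalin 2, read 1.35 to 3.55 CPM in controls and 2.69 to 5.15 CPM at 400 ppm, a rise of 1.11 (SE 0.30, edgeR adjusted p = 0.0104) with overlap. At 150 ppm Slc22a17 rose by 1.46 and Slc26a3 by 1.62, and without the hearts with a high fat marker sum these were 1.35 (edgeR adjusted p = 0.0306) and 1.65 (0.028). Without those with raised Adipoq and Cidec, Slc22a17 changed by 0.83 and Slc26a3 by 0.83 (edgeR adjusted p = 0.773 for each).

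**Figure D4:**
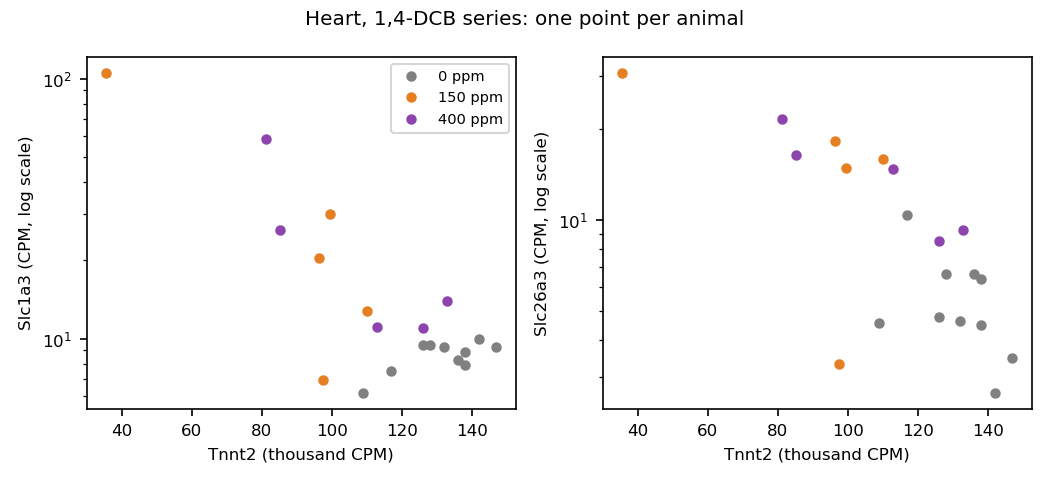
Level of Slc1a3 and Slc26a3 in each heart of the 1,4-DCB series (CPM, log axis) against the cardiomyocyte marker Tnnt2 (in units of 1000 CPM), 1 point per animal at 0 (grey), 150 (orange) and 400 ppm (purple). Animal 405 at 150 ppm has the lowest Tnnt2 (35500 CPM) with the highest Slc1a3 (105 CPM) and the highest Slc26a3 (30.8 CPM).

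In ovary at 250 ppm of 1,2-DCB the amino acid carriers Slc6a15, Slc38a5 and Slc1a3 (1 probe) rose, as did the vitamin carrier Slc5a6. Of 48 members 4 were higher (8.22% of all probes) and 1 lower (7.70%), 3 of the rises among 9 amino acid probes. Those not called included Slc1a4 (−0.42), Slc6a8 (−0.17) and Slc7a6 (−0.03), while ABC transporters counted 1 higher and 6 lower of 15. Slc6a15 went from 38.2 to 91.8 CPM in 10 controls (median 57.3) to 87.9 to 166 CPM in 7 ovaries (median 108.5), a rise of 0.95 (SE 0.18, edgeR adjusted p = 0.000228), opposite to its fall in kidney. Slc38a5, a glutamine carrier, went from 144.4 to 272 CPM (median 182) to 268 to 399 CPM (median 306), a rise of 0.69 (SE 0.18, edgeR adjusted p = 0.00566). In both, 6 of 7 exposed ovaries exceeded all controls.

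Slc1a3 went from 17.3 to 62.4 CPM (median 42.6) to 47 to 97.1 CPM (median 69.6), a rise of 0.76 (SE 0.22, edgeR adjusted p = 0.0138), while its other probes changed by 0.53 (0.158) and 0.55 (0.178). Its level in the 1,4-DCB control ovaries was 47.3 to 110.8 CPM, so the 1,2-DCB controls lay lower by −0.91 (edgeR adjusted p = 0.00363) without any exposure. In that comparison of unexposed ovaries 4 of 48 members, standing for 2 genes, were lower and 0 higher. Of 2713 probes 47 were lower and 120 higher. Slc5a6 rose by 0.48 (SE 0.17, edgeR adjusted p = 0.0395) with overlap. Its call was lost without animal 501 (edgeR adjusted p = 0.135), 505 (0.131) or 506R (0.065), with the series alone (0.0717) and with Dbp (0.464). Slc25a46 fell by 0.20 (SE 0.06, edgeR adjusted p = 0.0141); without animal 508 Slc25a46 changed by −0.15 (0.0727). With Dbp as a covariate 1 member was called in place of 5, and leaving out 1 exposed ovary at a time gave 4 to 8 calls, the 8 without animal 503. Of the 5 ovary markers on the panel none was called, with a sum of 4780 to 20200 CPM in controls and 6690 to 9100 CPM at 250 ppm. Fat markers summed to 29.6 to 924 CPM in controls and 141.7 to 1280 CPM exposed, with 2 of 3 higher, and leukocyte markers to 2480 to 8920 and 3440 to 6990 CPM, with 2 of 4 higher; their part was not tested. At 400 ppm of 1,4-DCB no member was called (0.479%), although 1 of 48 had an unadjusted p below 0.05. Of all probes 241 of 2713 had such a p. DESeq2 also called 0 members.

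Of 51 member genes tested, 10 (19.6%) were called in 3 or more of the 10 pairs of tissue and compound at the highest concentration, against 24.1% of all genes. Slc9a3r1 was called in 5, as were 4.07% of all genes in 5 or more, each time higher: both livers, and kidney, lung and the 1,4-DCB heart. Under the Dbp covariate Slc9a3r1 was not called in liver at 250 or 400 ppm (edgeR adjusted p = 0.0883 and 0.103) or in kidney (0.158). At 400 ppm in liver it was also lost with no filter (edgeR adjusted p = 0.0601), with attenuation undone (0.0515), without animal 504 (0.0501) or 505 (0.108) and without control 2 (0.0661), 4 (0.0613) or 10 (0.0543), and in heart without animal 501 (0.23), 503 (0.124) or 505 (0.0775). Slc25a13, Slc25a16, Slc25a4, Slc25a46, Slc27a2, Slc35a1, Slc35a3, Slc35b1 and Slc5a6 were called in 3 each. Among these, Slc25a13 and Slc25a16 fell in liver and rose in kidney and lung, and Slc25a4 rose in all 3. The Dbp covariate ended the calls of the rises of Slc25a13, Slc25a16 and Slc25a4 in kidney and of Slc25a16 in lung, and with all libraries that of Slc25a4 was called in neither liver nor lung.

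**Figure D5:**
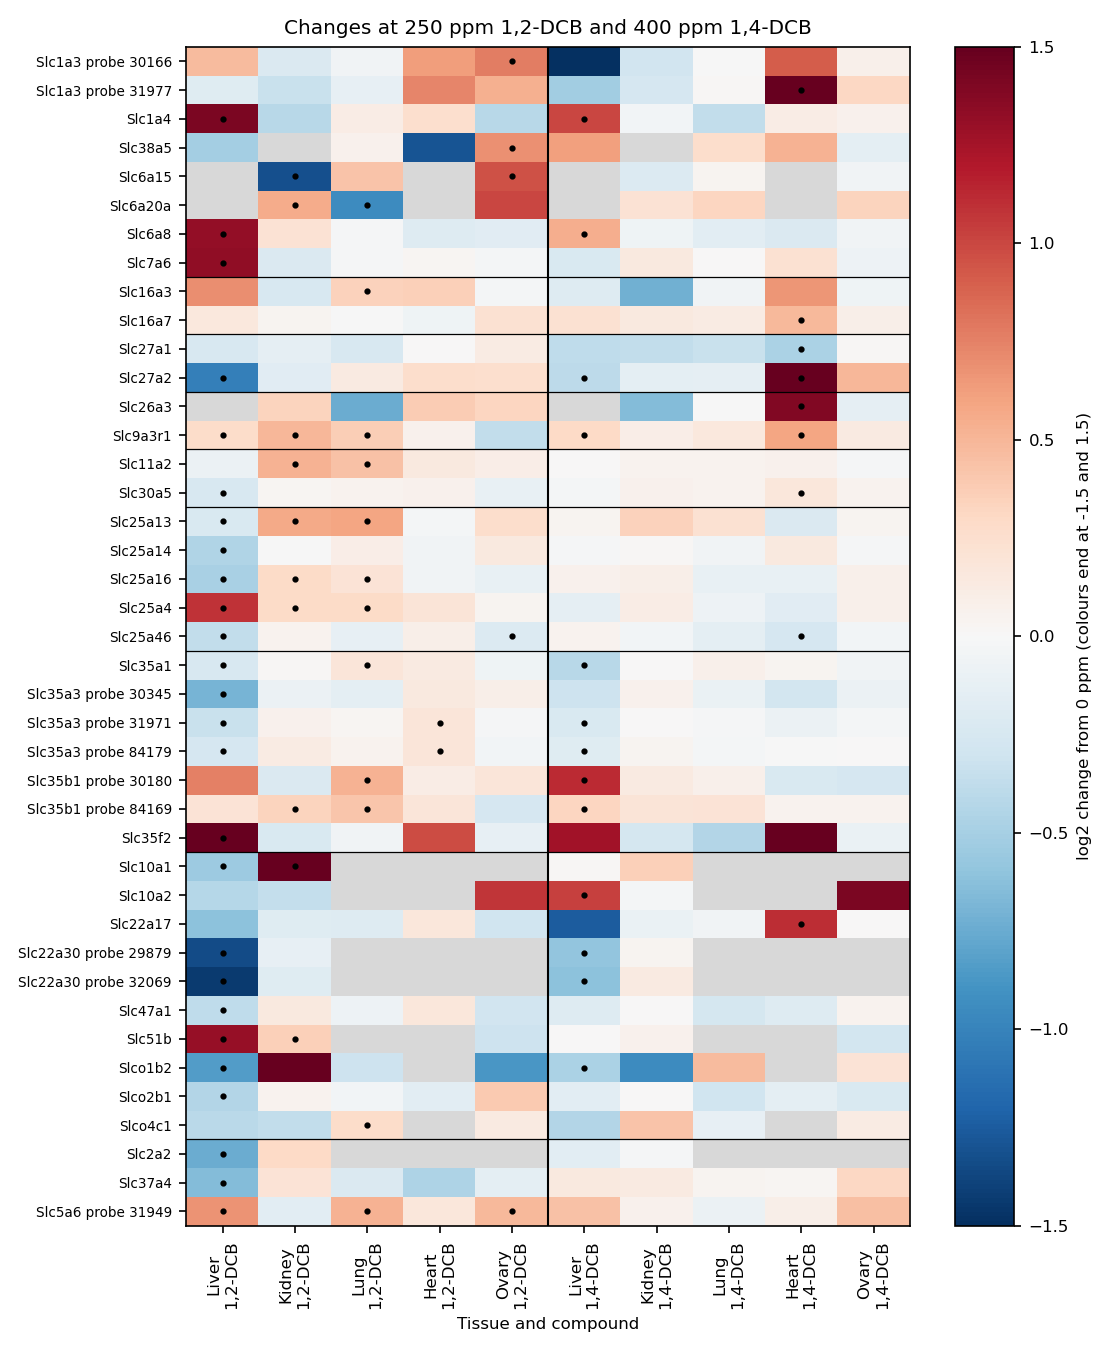
Log2 change from 0 ppm at 250 ppm of 1,2-DCB and 400 ppm of 1,4-DCB for each member probe called in at least 1 of the 10 columns (tissue and compound), grouped by substrate; dots mark calls, grey marks probes not tested, and colours end at −1.5 and 1.5. Liver at 250 ppm has more calls (27) than any other column, and kidney, lung and ovary have none at 400 ppm; 1 probe is counted but not drawn.

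The difference between tissues was tested directly by fitting liver and each other tissue together. At 250 ppm of 1,2-DCB the change differed from that in liver for 12 of 56 members in heart (29.9% of all probes) and 18 of 59 in lung (30.1%). It differed for 21 of 60 in ovary (31.8%) and 27 of 56 in kidney (31.9%). Among members that passed the filter of both tissues alone, the ovary count was 18 and the other counts stayed. In kidney 20 of the 27 changed to a higher value than in liver and 7 to a lower one. Slc1a4, Slc6a8, Slc7a6, Slc25a4, Slc25a16 and Slc35a3 differed from liver in all 4 tissues.

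Slc6a8 changed by 1.32 in liver and by −0.19 in heart, −0.01 in lung, −0.17 in ovary and 0.22 in kidney. Its difference was largest in heart (−1.52, SE 0.23, edgeR adjusted p = 1.46e-08). Slc1a4 changed by 1.41 in liver and by −0.42 in kidney, a difference of −1.82 (SE 0.28, edgeR adjusted p = 7.65e-08). Slc25a13 differed from liver by 0.80 in kidney (SE 0.12, edgeR adjusted p = 8.51e-08), 0.83 in lung (SE 0.12, edgeR adjusted p = 1.54e-08) and 0.49 in ovary (SE 0.13, edgeR adjusted p = 0.00139).

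At 400 ppm of 1,4-DCB fewer differed: 11 of 56 in heart (23.2% of all probes), 7 of 59 in lung (17.4%), 6 of 60 in ovary (15.9%) and 5 of 56 in kidney (15.6%). With the animal as a replicate block, since the tissues come from the same mice, these counts were 5, 4, 2 and 4. The shares of all probes in that fit were 18.6% for heart, 17.2% for lung, 13.6% for ovary and 14.1% for kidney. Among members that passed the filter of both tissues alone the counts were 7 in heart, 4 in lung, 4 in ovary and 5 in kidney without the block, and 5, 3, 2 and 4 with it. For either compound, the share of all probes under that filter was not counted. In kidney only 2 members differed in both fits, and Slc22a6, nearly absent from liver, went from 3.79 (edgeR adjusted p = 0.0297) to −1.18 (0.888) with the block. Slc35a1 and Slc6a8 differed from liver in all 4 tissues without the block. For Slc6a8 the block gave adjusted p of 0.0903 in kidney and 0.1 in ovary by edgeR, and for Slc27a2 in heart, where the difference was 5.49 without it, 4.34 with an edgeR adjusted p of 0.0597. Slc35a1 differed by 0.43 in kidney (SE 0.09, edgeR adjusted p = 0.000264) and by 0.49 in lung (SE 0.08, edgeR adjusted p = 1.68e-06), and Slc1a4 by −1.38 in lung (SE 0.28, edgeR adjusted p = 6.38e-05).

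The isomers share only 1 and 10 ppm, and there their effects on members could be compared, in 10 comparisons of tissue and concentration with p adjusted over all probes of each. No member differed in any of them by edgeR, while at 10 ppm the share of all probes that did was 1.14% in heart, 0.363% in lung, 1.58% in liver, 0% in ovary and 0.220% in kidney. In kidney at 1 ppm 13 of 54 members had an unadjusted p under 0.05, the most of the 10 comparisons, and the smallest adjusted p was 0.323. Of all probes 274 of 2729 had an unadjusted p under 0.05 there. At 10 ppm in liver 8 of 48 members and 352 of 2601 probes had an unadjusted p under 0.05. The smallest adjusted p of a member was 0.0656, and DESeq2 called 1. At 10 ppm the 95% interval of the difference lay within 2-fold for 22 of 44 members in heart, 34 of 50 in lung, 28 of 48 in liver, 30 of 48 in ovary and 39 of 54 in kidney, so for the others a 2-fold difference is not excluded by these data. Each isomer was given in its own series with its own controls, so isomer and series cannot be told apart here. Dbp in liver, for example, changed by 3.26 at 10 ppm of 1,2-DCB and by −0.72 at 10 ppm of 1,4-DCB.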

How the data were processed

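RNA of 5 tissues was read with the TempO-Seq Mouse S1500+ v1.2 panel. The authors deposited attenuation-adjusted read counts per probe, not scaled between libraries; the submitters' processing notes give Bowtie 1.3.1, whose alignment target is not given in the sources used here. In 59 probes, Slc25a4 included, all counts share a whole-number factor. Counts carry no unique molecular identifiers. Groups came from the labels, 34 libraries labelled as not used were left out, and among 824 pairs of replicates none agreed within sampling noise (smallest chi-square per degree of freedom 8.84). Animals are numbered in the labels, and 1 library of a tissue is 1 animal.

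Tests ran in edgeR 4.0.16 under R 4.3.3, by its quasi-likelihood method (TMM, filterByExpr over the 12 groups of a tissue, two-sided, Benjamini-Hochberg over all probes, threshold 0.05). The standard error is the log2 change divided by the square root of the F value. Tissue differences used 1 fit of liver and another tissue, over probes that passed the filter in that joint fit. Tissues were paired by the animal numbers of the labels; over animals the median correlation of an animal's deviations in liver and the other tissue was 0.056 for heart, 0.069 for ovary, 0.094 for kidney and 0.123 for lung. Alternatives were DESeq2 1.42.0, RLE scaling, no filter, all libraries, 1 series alone, Dbp as a covariate, attenuation undone and leaving out animals. Leaving out hearts with raised fat markers, by their sum or by Adipoq and Cidec, was added after seeing the data.

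Members, substrate groups, marker lists and motifs were chosen with earlier results of these data known. Named were members with an adjusted p under 0.05 and a mean of at least 20 counts: in liver up to 8 each way at the highest concentrations, in kidney and lung up to 5, in heart and ovary up to 3, elsewhere up to 3 by p, and members called in 3 or more pairs of tissue and compound. For unexposed levels the 3 largest ratios to the next tissue were named. Further members were named after their values were seen. Fits were tested on simulated data. Promoters were taken from RefSeq for the 44 of 54 genes matched. Results for 1 member are not reported here, though counts include it.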

Additional observations from a re-analysis of the deposited data

Results flagged for a closer look

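In 5 of 130 groups of control or exposed animals tested, 1 animal lay far from the others of its group, which chance gives in about 1 of 20 groups. These were Slc7a6 in liver (1,2-DCB control 4 at 2.49 CPM, the highest of 9), Slc5a6 in lung (1,2-DCB control 9 at 9.55 CPM, median 5.14), Slc6a20a in lung (1,2-DCB control 1 at 3.54 CPM, median 6.59), Slc27a1 in heart (1,4-DCB control 10 at 189.5 CPM, median 137.5) and Slc1a3 in ovary (1,2-DCB control 9 at 17.3 CPM, median 42.6).

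The change in liver differed from that in another tissue for the following members by the test of the difference, given as the other tissue minus liver in log2 units. At 250 ppm of 1,2-DCB, Slc25a16 differed by 0.78 and Slc1a4 by −1.82 in kidney, Slc25a13 by 0.83 and Slc6a8 by −1.31 in lung, Slc35a3 by 0.50 and Slc6a8 by −1.52 in heart, and Slc35a3 by 0.78 and Slc6a8 by −1.49 in ovary. At 400 ppm of 1,4-DCB, Slc35a1 differed by 0.43 and Slc1a4 by −1.03 in kidney, Slc35a1 by 0.49 and Slc1a4 by −1.38 in lung, Slc27a2 by 5.49 and Slc6a8 by −0.76 in heart, and Slc35a1 by 0.36 and Slc1a4 by −0.94 in ovary. Slc27a2 in heart rests on animals 501 and 503.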

How the results depend on the processing

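Of 93 named changes none reversed under scaling, filter, library, attenuation, DESeq2, Dbp or 1-series alternatives. Leaving out 1 animal at a time was run for 71 of them, of which none reversed and 30 lost their call at least once. Controls were left out in turn only in groups of at most 7, so in liver at 400 ppm and in kidney. The control libraries flagged above were not among those left out. The count at 250 ppm of 1,2-DCB in liver stayed within 1.5 times under each of these alternatives and refits. With all libraries, which adds those set aside in the labels for depth, contamination, alignment or outlying values, 27 of the 93 were no longer called. Liver at 400 ppm had 6 calls in place of 13 and lung at 250 ppm 7 in place of 13. The isomers differed for 5 members in liver at 1 ppm in place of 0. With Dbp as a covariate 36 were no longer called. Dbp itself rose at 250 ppm in every tissue and at 400 ppm in heart, lung and ovary. Calls numbered 3 in kidney and 1 in ovary at 250 ppm and 15 in heart at 400 ppm. With 1 series alone lung at 400 ppm had 2 calls. At lower concentrations, kidney at 30 ppm of 1,2-DCB had 8 calls with all libraries and 2 with 1 series in place of 1, kidney at 1 ppm of 1,4-DCB 5 by DESeq2 and 0 with all libraries or 1 series in place of 2, and lung 3 at 30 ppm and 2 at 100 ppm with all libraries in place of 5 and 4. RLE scaling and DESeq2 each gave 1 isomer difference in liver at 10 ppm. RLE scaling, no filter, attenuation undone and DESeq2 each gave 1 call in heart at 250 ppm. Without hearts with a high fat marker sum there were 2 calls at 400 ppm, and 9 of 12 named changes were lost. Without hearts with raised Adipoq and Cidec there were 0, with 11 of the 12 lost and Slc27a2 reversed to −1.98 (edgeR adjusted p = 0.855), from values at or near 0 CPM; fewer hearts were tested. The cause was not tested.

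Leaving out 1 animal at a time gave 8 to 13 calls in liver at 400 ppm, 6 to 10 in kidney at 250 ppm and 0 to 1 at 400 ppm, 1 to 2 in heart at 250 ppm and 1 to 11 at 400 ppm, and 4 to 8 in ovary at 250 ppm. With the animal as a replicate block, members that differed from liver at 400 ppm numbered 4 in lung in place of 7, 5 in heart in place of 11 and 2 in ovary in place of 6; other counts stayed within 1.5 times. Of all probes 17.2%, 18.6% and 13.6% differed in lung, heart and ovary with the block, in place of 17.4%, 23.2% and 15.9%. Carriers of a few CPM rest on few counts, and ovary has the shallowest libraries; how far depth limited its calls was not tested.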
